A study of Mus musculus with 12 samples.

Results

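The nuclear genes for subunits of oxidative phosphorylation (OXPHOS) were followed in polysome and RNP pools of mouse oocytes with and without *Lsm14b*. Members were the gene symbols of the deposited table that begin with Nduf followed by a, b, s, v or c and a digit, with Uqcr, with Cox4 to Cox8 followed by a letter, or with Atp5. The rule used names only and no measured value. It took 80 of 24259 genes, of which 35 belong to complex I, 8 to complex III, 20 to complex IV and 17 to complex V. *Ndufa4* and its paralog *Ndufa4l2* were counted with complex IV, where the NDUFA4 protein resides. *Atp5s* and *Atp5sl* (*Dmac2* in the annotation) match the rule and are counted with complex V by name only. Neither product is a subunit of the ATP synthase, and that of *Atp5sl* acts in assembly.

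The oocytes were at the germinal vesicle (GV) stage, in which fully grown oocytes are arrested before meiosis resumes, and came from 3-week-old mice of C57BL/6J background, 46 h after 5 IU of PMSG. KO females were homozygous for *Lsm14b* tm1a(KOMP)Mbp, a reporter-tagged insertion allele carried in all cells of the animal, and WT females were the controls. Lysate of about 1500 pooled oocytes was spread over a sucrose gradient, in which fractions 1 to 10 formed the RNP pool (mRNA with few or no ribosomes) and fractions 11 to 28 the polysome pool (mRNA with many ribosomes). The 4 groups, WT and KO in either pool, had 3 libraries each and 12 in all. No source used here says whether the 3 came from separate animals, so the p-values measure the spread between these libraries, which may be technical.

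OXPHOS is the process by which mitochondria make ATP. Complex I takes electrons from NADH, complex III passes them to cytochrome c, and complex IV hands them to oxygen, while protons are pumped out of the matrix. Complex V, the ATP synthase, lets the protons return and makes ATP. A few subunits of these complexes are made inside the mitochondrion from its own genome, and the rest are made by cytosolic ribosomes and imported. The oocyte depends on this pathway, since it uses little glucose itself and passes its mitochondria to the embryo. LSM14B is an RNA-binding protein of the oocyte cytoplasm, where many mRNAs are stored without translation.

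The mRNAs of the members were short. In the GENCODE M21 annotation of GRCm38, the coding transcript chosen for each member had a median of 680 bases (range 315 to 2661), against 2826 bases for 10433 tested genes with a coding transcript, and 72.5% of the members but 7.48% of those genes were under 1000 bases. A second feature, found in a small part of the members, was the start of the coding sequence. The letters AAN, the start codon ATG and GCGGC, joined without a gap (N is any base), stand at the start site of 9 members (11.25%) and of 0.963% of 20355 genes with a coding transcript. They are the core of the start-site element known from mRNAs with very short 5′ untranslated regions, and were read in the direction of the mRNA and only at the annotated start codon. The annotated 5′ untranslated regions of the 9 members were not all short. They ran from 9 bases (*Ndufs6*) to 248 bases (*Ndufs7*), with 180 bases in *Ndufs3* and 202 bases in *Ndufs4*. Of the 9 members, 7 belong to complex I, as did 20.0% of its 35 members, and none to complex IV. Among the genes for mitochondrial ribosomal proteins 14.3% of 77 carried these letters, and among those for cytosolic ribosomal proteins none of 83.

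The start windows of 7 of these members are shown with the match in capitals, so that the shared letters can be set against those of *Atp5g1* and *Cox8a*, which lack the match (the start codon is in capitals) and which were the members called for the polysome-to-RNP ratio below. The windows are from GENCODE M21 transcripts on GRCm38, in mRNA sense, and reach from up to 10 bases before the start codon to its base 20.
*Ndufs3* (chromosome 2, 90894634 to 90904827, minus strand): actaaggAACATGGCGGCggctgcagccag
*Ndufs4* (chromosome 13, 114287795 to 114388258, minus strand): ctacaggAAGATGGCGGCggtctcaatgtc
*Ndufs6* (chromosome 13, 73319838 to 73328542, minus strand): accggcAAGATGGCGGCggtgctgacctt
*Ndufs7* (chromosome 10, 80249121 to 80256794, plus strand): cgaggccAAGATGGCGGCgctggcggctcc
*Ndufa6* (chromosome 15, 82350140 to 82354322, minus strand): cctcggcAAGATGGCGGCcgcggccaccgg
*Uqcrc1* (chromosome 9, 108936633 to 108949623, plus strand): aagttagAAGATGGCGGCgtccgcagtctg
*Atp5sl* (chromosome 7, 25619414 to 25625551, plus strand): acctggcAAGATGGCGGCgcccagagcggt
*Atp5g1* (chromosome 11, 96068852 to 96075670, minus strand): agattgaaaaATGcagaccaccaaggcact
*Cox8a* (chromosome 19, 7215153 to 7217616, minus strand): ccgcgccgtcATGtctgtcctgacgccact
The marked letters, which differ among the matches only at the free base before the start codon, thus lie in mRNAs of the peripheral arm of complex I, of complex III and of an assembly factor.

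The libraries held an estimated 4.88 to 7.84 M fragments (M, mega). *Lsm14b* lay between 11.3 and 34.6 FPKM (fragments normalised for transcript length and library depth) in the 6 WT libraries and between 0 and 0.893 FPKM in the 6 KO libraries, and 7 or 8 of 8 oocyte markers were above 1 FPKM in each library. Summed over 10 markers of granulosa and cumulus cells, the level was 27.2 to 75.5 FPKM in WT polysomes and 81.1 to 103 FPKM in KO polysomes, and 31.3 to 35.3 FPKM in WT RNP and 42.7 to 65.5 FPKM in KO RNP. These sums did not overlap between genotypes. Sums over the 8 oocyte markers did not overlap either, and were also higher in KO. They were 19090 to 20998 FPKM in WT polysomes and 21545 to 23551 FPKM in KO polysomes, and 4511 to 4654 FPKM in WT RNP and 5659 to 6139 FPKM in KO RNP. Of 7 granulosa and cumulus cell markers tested in polysomes, 3 were called higher in KO (limma, adjusted p under 0.05) and none lower. Those called were *Inha* (0 to 9.58 FPKM in WT and 39.4 to 51.4 FPKM in KO), *Fshr* (0 to 0.70 and 3.14 to 6.74 FPKM) and *Inhba* (0 to 0.252 and 3.72 to 11.9 FPKM). Of 4 tested in RNP, *Inha* was called higher. Testing required at least 1 FPKM in at least 3 libraries of a comparison. *Fshr* and *Inhba* in polysomes, and *Inha* in RNP, met this only through the KO libraries, so they could hardly be called lower. *Cyp19a1*, the highest of the 10 in WT, overlapped between genotypes in polysomes, at 19.0 to 62.0 FPKM in WT and 14.6 to 34.5 FPKM in KO. Of the 7 tested in polysomes, 5 changed upward and 2 downward. The defining markers *Foxl2* and *Amhr2* lay between 0 and 1.01 FPKM. The part of such cells in the changes below was not tested. In the KO polysome library of replicate 2, *Mir300* took 24.5% of the summed FPKM.

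The members together made up 0.738% to 0.914% of the summed FPKM of WT polysomes and 0.465% to 0.589% of that of WT RNP (*Mir300* left out). KO polysomes lay at 0.720% to 0.728% and KO RNP at 0.666% to 0.742%. By this share the pools were apart in WT and overlapped in KO, and the members' share in KO RNP lay above all 3 WT RNP libraries. The members' summed FPKM, not divided by the library total, stayed apart in KO. It was 3633 to 3922 FPKM in KO polysomes and 3085 to 3467 FPKM in KO RNP. FPKM is relative within a library, so fewer oocytes, or fewer cells of another type, cannot be told apart from less RNA per cell. Summed by complex, complex IV lay between 795 and 992 FPKM in WT RNP and between 1239 and 1426 FPKM in KO RNP. Complex V lay between 231 and 270 FPKM in WT RNP and between 418 and 428 FPKM in KO RNP. Complex III lay between 417 and 627 FPKM in WT and 653 and 758 FPKM in KO, and complex I between 594 and 702 FPKM in WT and 763 and 855 FPKM in KO. The KO sums lay above the WT sums for all 4 complexes in the RNP pool. In polysomes only the sum of complex V did not overlap, at 453 to 571 FPKM in WT and 626 to 666 FPKM in KO.

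Levels differed widely between members of one complex. Of the 80 members, 64 were above 0 in all 12 libraries, 42 had a mean over all libraries of at least 10 FPKM and 8 of at least 100 FPKM. The most abundant were *Cox8a*, for a small transmembrane subunit of complex IV, with a mean of 467 FPKM, *Uqcrq* of complex III with 311 FPKM, *Cox7a2l*, a paralog of *Cox7a2*, with 292 FPKM, and *Cox6a1* with 254 FPKM. The 7 core subunits of complex I in the list, which carry its flavin, iron-sulfur clusters and quinone site, had low values. Their means ran from 1.33 to 8.04 FPKM (median 3.56 FPKM), while the other 28 members of complex I had a median of 13.5 FPKM and reached 124 FPKM. *Ndufv1*, the NADH-binding subunit, stood at 10.2, 9.68 and 9.73 FPKM in WT polysomes and 8.50, 8.40 and 7.73 FPKM in WT RNP. *Ndufs1*, the largest iron-sulfur subunit, stood at 0.919, 2.18 and 2.19 FPKM in WT polysomes and 0.708, 0.477 and 0 FPKM in WT RNP.

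The filter for testing, at least 1 FPKM in at least 3 libraries of a comparison, removed 10 members from every comparison. *Cox7a1* and *Cox8b*, muscle isoforms of complex IV, were listed at 0 in all libraries. *Ndufb2*, *Ndufs5*, *Ndufc1*, *Cox6c*, *Atp5k* and *Uqcrc1*, which most cells need, were also listed at 0 or at most at 2.34 FPKM, and are given here only as listed. *Cox7b2*, a testis isoform, was listed at 10.3 FPKM in 1 WT polysome library and at 0 in the other 11, and *Atp5s* reached 1.44 FPKM. The deposited locus of 14 members is shared with other genes, and reads of the paired genes may have been split between them. Of the members named here these are *Atp5b*, *Atp5f1*, *Cox4i2*, *Cox6a2*, *Ndufa4l2*, *Ndufb11*, *Ndufs1*, *Ndufs7* and *Uqcrc2*.

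Isoform choice was that of a general cell rather than of muscle, lung or testis, with an exception. *Cox4i1*, the common isoform, stood at 152, 168 and 208 FPKM in WT polysomes, and *Cox4i2*, known from lung, at 2.48, 5.31 and 3.29 FPKM. *Cox6a1* stood at 349, 298 and 432 FPKM there, and *Cox6a2*, the isoform of heart and skeletal muscle, at 5.88, 6.67 and 14.7 FPKM. The exception was *Cox6b2*, known from testis, which at 20.8, 23.7 and 50.9 FPKM in WT polysomes overlapped the common *Cox6b1* at 26.3, 26.0 and 22.7 FPKM. *Cox8c*, another testis isoform, varied from 0 to 22.4 FPKM with no order between the groups. The mRNAs *Atp5g1*, *Atp5g2* and *Atp5g3* encode the same mature c subunit, which forms the rotor ring of complex V, behind different import signals. *Atp5g1* led with 57.3, 56.5 and 49.7 FPKM in WT polysomes, *Atp5g3* followed with 10.2, 11.6 and 6.49 FPKM, and *Atp5g2* had 1.73, 4.43 and 3.62 FPKM. How reads that match several members of such families were assigned is not given in the sources used here, so their levels carry that uncertainty.

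**Figure D1:**
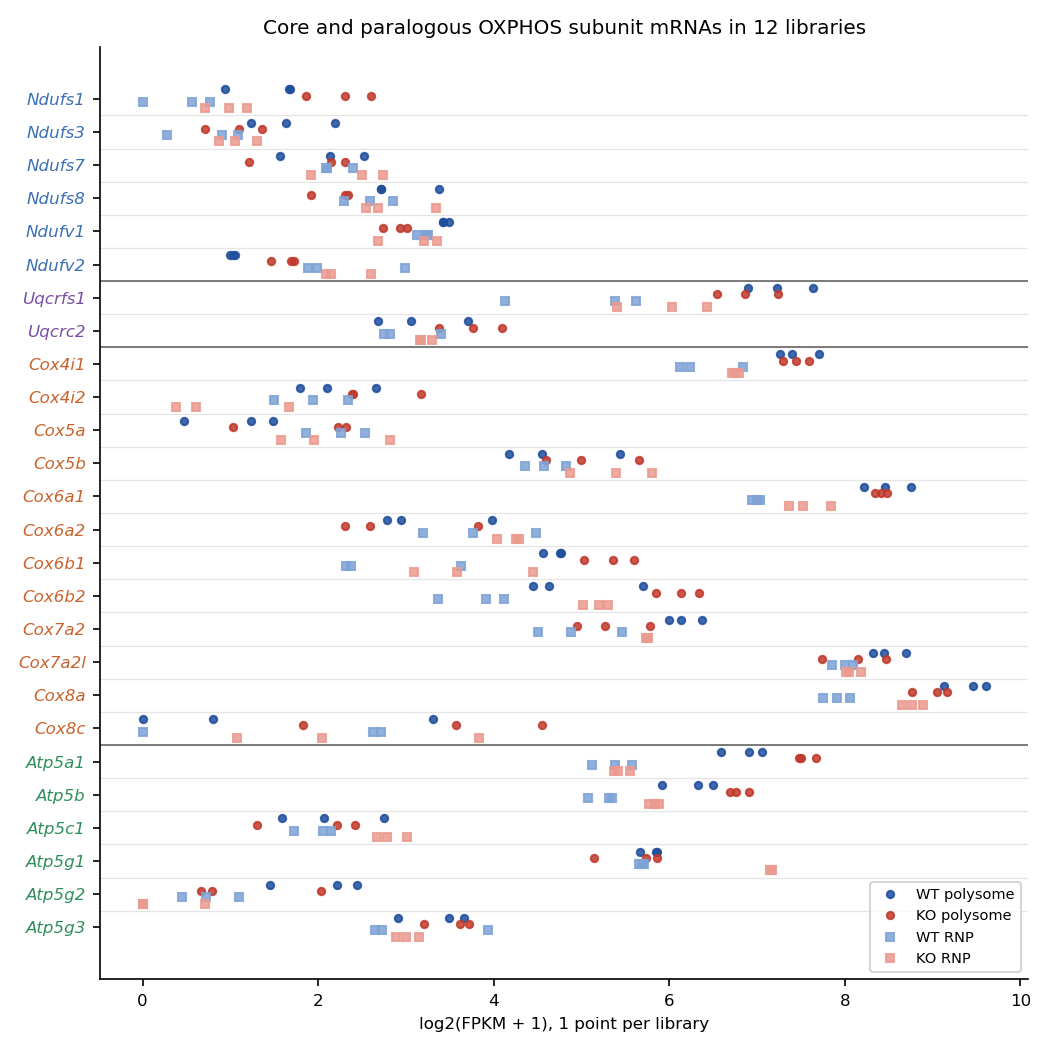
Level of 26 core and paralogous members in each of the 12 libraries, as log2(FPKM + 1) on the horizontal axis, with circles for polysome and squares for RNP libraries, blue for WT and red for KO, and gene names coloured by complex (I blue, III purple, IV orange, V green). Complex I core subunits lie low, and the KO RNP squares of *Atp5g1* lie apart from its 9 other points.

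In WT oocytes the members were skewed to polysomes. This comparison asks which mRNAs lie in the polysome fractions before meiosis resumes. The number of ribosomes on each mRNA was not measured. The members' coding sequences had a median of 379.5 bases, against 1329 bases for the 10433 tested genes with a coding transcript. Of 68 members tested, 21 were higher in the polysome pool and none was lower at an adjusted p under 0.05 (limma on log2(FPKM + 1), Benjamini-Hochberg), where 7.97% of all 9574 genes tested were called higher and 6.72% lower. The members' median difference, polysome less RNP, was 0.57 on the log2 scale, against -0.09 over all genes tested, and 80.9% of the members but 45.7% of all genes lay above 0. By complex, 6 of 30 tested members of complex I, 3 of 7 of complex III, 8 of 16 of complex IV and 4 of 15 of complex V (*Atp5sl* among them) were called higher. Without WT RNP replicate 2 the count was 12, and without WT RNP replicate 3 it was 11.

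*Atp5sl* had the largest difference, with 143, 57.4 and 76.9 FPKM in WT polysomes and 11.9, 13 and 11.8 FPKM in WT RNP. Its libraries did not overlap between the pools, and its log2 difference was 2.72 (standard error 0.33, adjusted p = 0.0012 by limma). *Uqcrfs1*, the Rieske iron-sulfur protein of complex III, stood at 148, 198 and 118 FPKM in WT polysomes against 48.2, 16.5 and 40.6 FPKM in WT RNP, a difference of 2.21 (standard error 0.38, adjusted p = 0.006 by limma). Each polysome library again lay above each RNP library. *Atp5f1*, subunit b of the stalk that holds the synthase still, differed by 1.99, *Cox6b1* by 1.92, *Cox7c* by 1.89 and *Ndufa4* by 1.88. The catalytic subunits of complex V were also higher in polysomes, *Atp5a1* (alpha) by 1.49 and *Atp5b* (beta) by 1.01. *Cox4i1* was higher by 1.06 and *Cox6a1* by 1.49. The core subunits of complex I that were tested differed by -1.26 (*Ndufv2*) to 0.93 (*Ndufs3*) and passed no test, as did *Atp5g1*, with 0.11.

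In the RNP pool, members were higher in KO than in WT oocytes. This comparison asks how the genotype changes the mRNA outside polysomes. Of 66 members tested, 13 were higher and 1 was lower in KO RNP (limma, adjusted p under 0.05), where 10.5% of all 9931 genes tested were called higher and 10.2% lower. In 26 members (39.4%) the KO libraries all lay above the WT libraries, against 20.7% of all genes, and in 3 (4.55%) all below, against 18.4%. The median change of the members was 0.48 on the log2 scale and that of all genes 0.05. Complex IV supplied 6 of the 13 members that rose, complexes I and V 3 each (*Atp5sl*, which is no subunit, among the latter), and complex III 1. Of the 13 transcripts, 10 were under 1000 bases, which is near the 72.5% of all 80 members. Without WT RNP replicate 1 the count rose to 20, and a filter at 5 FPKM also gave 20.

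*Atp5g1* changed most. Its level was 51.3, 49.2 and 50.5 FPKM in WT RNP and 141, 142 and 144 FPKM in KO RNP. The log2 change was 1.48 with a standard error of 0.11 (adjusted p = 5.5e-05 by limma), or 2.79-fold on the log2(FPKM + 1) scale. The 2 groups were tight and far apart, and the call held under all 14 alternatives. Of the other mRNAs for subunit c, *Atp5g3* did not pass the test, with a change of -0.09, 5.28, 5.63 and 14.3 FPKM in WT RNP and 7.85, 7.02 and 6.4 FPKM in KO RNP, and *Atp5g2* was too low to be tested.

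In complex IV, *Cox8a* went from 266, 239 and 214 FPKM in WT RNP to 402, 433 and 475 FPKM in KO RNP, a change of 0.87 (standard error 0.11, adjusted p = 0.00075 by limma). *Cox7b*, for a small membrane subunit, went from 17.4, 17.6 and 11.3 FPKM to 38.0, 35.8 and 38.2 FPKM, a change of 1.25 (standard error 0.21, adjusted p = 0.0039 by limma). *Cox6b2* went from 14.1, 16.4 and 9.32 FPKM to 35.8, 31.4 and 38.5 FPKM, a change of 1.37 (standard error 0.23, adjusted p = 0.0039 by limma). None of these groups overlapped. *Cox7c* (chromosome 13, 86044816 to 86046904) rose by 1.19, *Cox7a2* (chromosome 9, 79755361 to 79759878) by 0.80 and *Cox6a1* by 0.58. The calls of *Cox7a2* and *Cox7c* were less secure. That of *Cox7a2* was lost when WT RNP replicate 2 or 3, or any KO RNP replicate, was left out, and that of *Cox7c* without KO RNP replicate 1 or 2. *Cox4i1* (0.35), *Cox5b* (0.77) and *Cox7a2l* (0.10) did not pass the test.

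In the other complexes, *Ndufa6*, an accessory subunit that binds the acyl carrier protein of complex I, went from 22.3, 16.5 and 13.8 FPKM in WT RNP to 47.6, 32.4 and 39.4 FPKM in KO RNP, a change of 1.15 (standard error 0.23, adjusted p = 0.0082 by limma). *Atp5sl* went from 11.9, 13 and 11.8 FPKM to 30.1, 21.8 and 31.4 FPKM, a change of 1.10, and *Atp5b* rose by 0.58, a call that was lost when any KO RNP replicate was left out. *Uqcrh*, the hinge protein of complex III, *Ndufb6* and *Ndufb11*, both of the membrane arm of complex I, rose by 1.00, 0.91 and 0.71 and are named after their values were seen. The call of *Ndufb6* was lost without KO RNP replicate 2 or 3.

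*Ndufb7* (chromosome 8, 83566671 to 83571626), an accessory subunit on the intermembrane side of complex I, was the member that fell. It stood at 35.1, 19.1 and 26.5 FPKM in WT RNP and at 7.06, 7.48 and 8.95 FPKM in KO RNP, a change of -1.62 (standard error 0.26, adjusted p = 0.0031 by limma). The groups did not overlap. In polysomes it had 18.4, 11.1 and 8.82 FPKM in WT and 5.65, 15.2 and 5.36 FPKM in KO, which overlapped.

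In the polysome pool few members differed between the genotypes. Of 70 members tested, 1 was higher and none lower in KO (limma, adjusted p under 0.05), where 5.64% of all 9536 genes tested were called higher and 4.73% lower, and 12 members (17.1%) had an unadjusted p under 0.05, against 26.3% of all genes. The median change of the members was -0.08 and that of all genes 0.10. The KO libraries all lay above the WT libraries in 7 members (10.0%, against 18.2% of all genes) and all below in 11 (15.7%, against 13.4%). The 13 members that rose in the RNP pool changed by -0.84 to 1.19 in polysomes, 6 of them above and 7 below 0.

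The member that rose was *Atp5a1*, the alpha subunit that alternates with the beta subunit in the catalytic head of complex V. It stood at 119, 95.1 and 132 FPKM in WT polysomes and 180, 202 and 177 FPKM in KO polysomes, a change of 0.70 (standard error 0.16, adjusted p = 0.0288 by limma). In the RNP pool it did not pass the test (0.09), with 33.8, 40.5 and 46.9 FPKM in WT and 41.7, 45.8 and 40.5 FPKM in KO. The polysome groups did not overlap, but the call was lost under 8 of 14 alternatives, among them leaving out WT polysome replicate 1 or 2 or any KO polysome replicate. *Atp5b* had 79.5, 89.7 and 59.6 FPKM in WT polysomes and 108, 102 and 119 FPKM in KO polysomes, which did not overlap, with a change of 0.53 and an adjusted p of 0.11 (limma). *Cox6b2* had a change of 1.19 with an adjusted p of 0.056 (limma). Of the complex I core, *Ndufs1* had the highest change (0.83) and *Ndufs8* the lowest (-0.75), and neither passed the test.

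**Figure D2:**
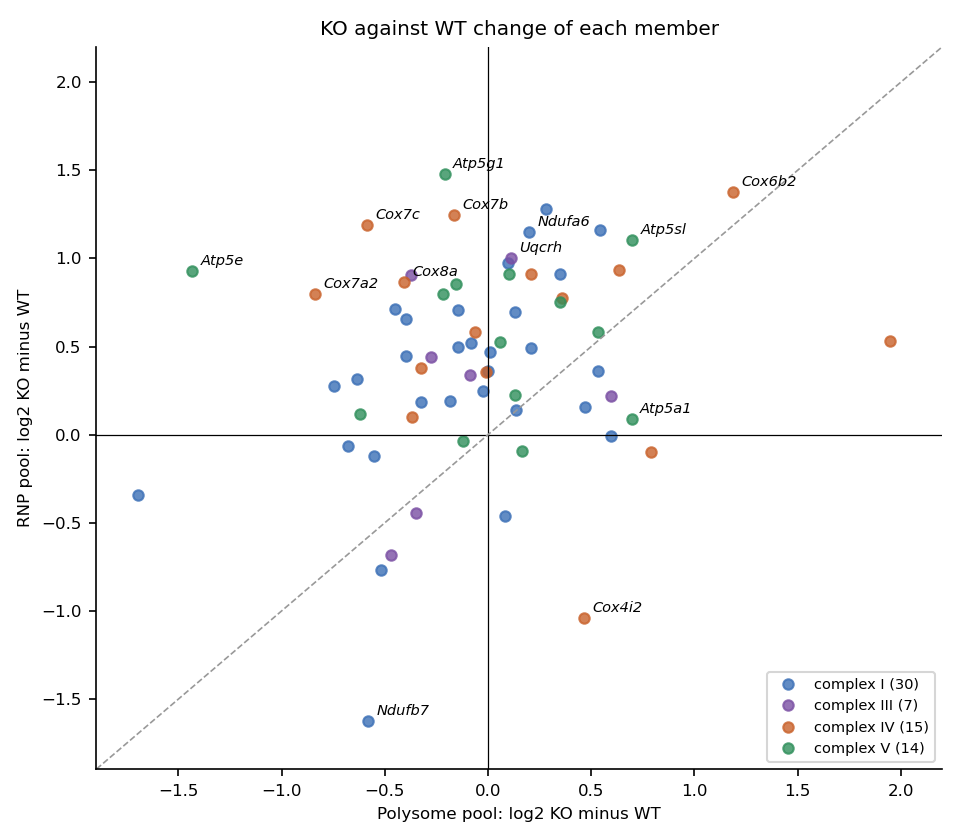
Log2 change of KO against WT in the polysome pool (horizontal axis) and in the RNP pool (vertical axis) for the 66 members tested in both, coloured by complex, with a dashed line where both changes are equal. Most points lie above 0 on the vertical axis and on both sides of 0 on the horizontal axis, with *Atp5g1* highest at 1.48 and *Ndufb7* lowest at -1.62.

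Across the 66 members tested in both pools, the changes in one pool went little with those in the other (Pearson's r = 0.20, Spearman's rho = 0.19), whereas r was 0.61 over all 9100 genes. The 2 comparisons share no library, though pools of 1 genotype may come from the same gradients, and genes are not independent replicates. In 5 members the KO libraries lay all below WT in polysomes and all above WT in RNP, which is 7.58% of the 66, against 0.714% of all genes tested in both pools. These were *Cox7a2*, *Cox7c*, *Ndufa7*, *Ndufa8* and *Uqcrq*, and no member went the opposite way. *Cox7a2* stood at 69.4, 63.1 and 81.9 FPKM in WT polysomes and 53.9, 30.0 and 37.6 FPKM in KO polysomes, while it went from 43.2, 28.5 and 21.6 FPKM in WT RNP to 52.3, 53.0 and 52.8 FPKM in KO RNP. *Cox7c* stood at 35.1, 22.2 and 28.1 FPKM in WT polysomes and 20.1, 17.2 and 17.8 FPKM in KO polysomes, and at 10.0, 5.86 and 5.40 FPKM in WT RNP and 17.9, 18.2 and 14.8 FPKM in KO RNP. For both, the pools did not overlap in WT and overlapped in KO. *Atp5b* and *Cox6b2* lay above WT in both pools without overlap.

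The effect of genotype on the polysome-to-RNP ratio was tested as an interaction term, fitted to the 12 libraries at once, and so reuses the libraries of the comparisons above. Of 70 members, 2 had a lower ratio in KO and none a higher one (limma, adjusted p under 0.05), where 0.155% of all 10949 genes tested were called lower and 0.0822% higher, and 19 members (27.1%) had an unadjusted p under 0.05, against 11.1% of all genes. The median effect of the members was -0.46 and that of all genes 0.04, and 55 of the 70 members lay below 0 (78.6%, against 47.6% of all genes). The median was below 0 in each complex, at -0.54 in complex I, -0.43 in complex III, -0.44 in complex IV and -0.41 in complex V.

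The members called were *Atp5g1* and *Cox8a*. *Atp5g1* had 57.3, 56.5 and 49.7 FPKM in WT polysomes and 57.1, 52.5 and 34.4 FPKM in KO polysomes, which overlapped, and the effect on its ratio was -1.69 (standard error 0.25, adjusted p = 0.0204 by limma). *Cox8a* had 779, 559 and 704 FPKM in WT polysomes and 433, 530 and 574 FPKM in KO polysomes, which overlapped, and the effect on its ratio was -1.27 (standard error 0.20, adjusted p = 0.0204 by limma). Both calls were lost without the intensity trend, and with the replicate number as a block, where 0 of the 10949 genes were called. They were also lost when WT RNP replicate 2 or 3 or any KO RNP replicate was left out. The call of *Cox8a* was lost without KO polysome replicate 2 as well. Without WT RNP replicate 1 the count was 4. The effects themselves stayed between -1.83 and -1.47 for *Atp5g1* and between -1.41 and -1.16 for *Cox8a* with each library left out. *Cox7c* (-1.78, adjusted p = 0.088 by limma) and *Cox7a2* (-1.63, adjusted p = 0.095 by limma) had effects of like size but did not pass.

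**Figure D3:**
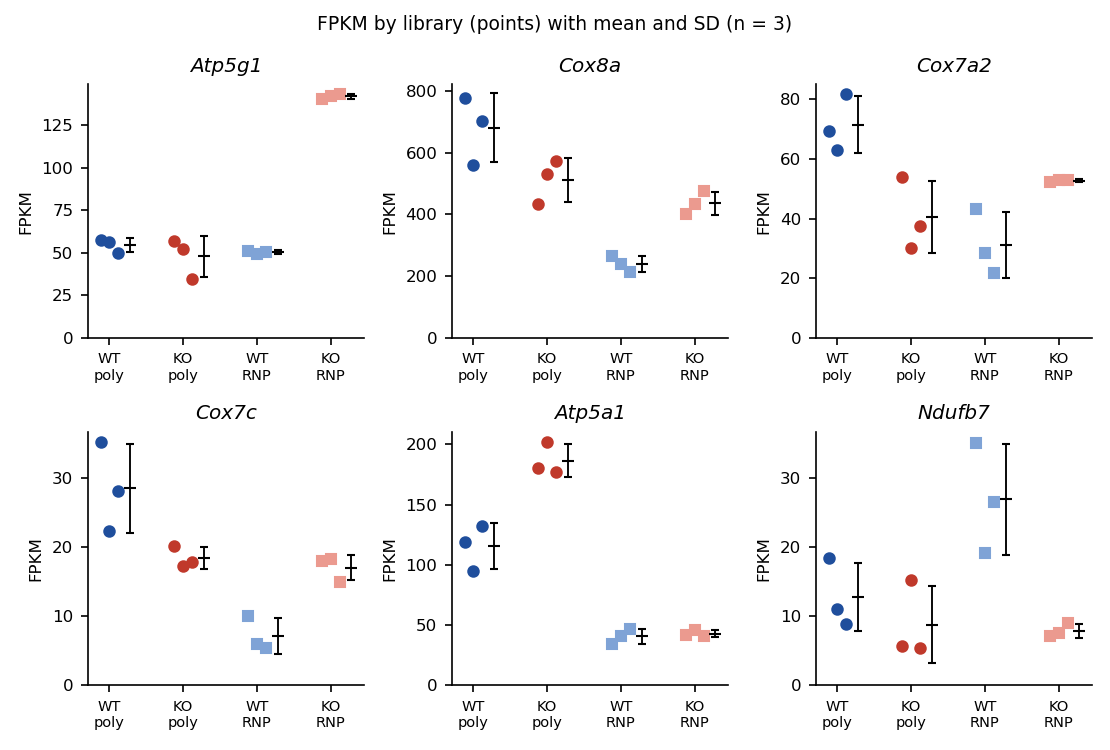
FPKM of 6 members in each library (points), with the mean and SD of each group of 3 libraries beside them. *Atp5g1* stands at about 50 FPKM in all groups but KO RNP, the pools of *Cox8a*, *Cox7a2* and *Cox7c* are apart in WT and close or turned in KO, *Atp5a1* differs in polysomes and *Ndufb7* in RNP.

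Within KO oocytes the skew to polysomes was split. Of 67 members tested, 16 were higher and 12 lower in polysomes than in RNP (limma, adjusted p under 0.05), where 15.5% of all 9851 genes tested were called higher and 13.8% lower. The median difference of the members was 0.20, against -0.04 over all genes. Without KO RNP replicate 1 or 2 the count of higher members was 9, and without KO RNP replicate 3 the count of lower members was 5. Of the 21 members called higher in WT, 12 were called higher in KO as well (57.1% of the WT calls and 75% of the KO calls). The other 9, *Cox7a2*, *Cox7a2l*, *Cox7c*, *Cox8a*, *Ndufa6* and 4 more among them, had differences of -0.41 to 0.75 in KO. Whether a difference between the pools itself differs between genotypes is the ratio test above, which only *Cox8a* of these passed.

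Complex V members stood at both ends in KO. *Atp5a1* (2.10) and *Atp5f1* (1.58) were higher in KO polysomes, as was *Atp5sl* (2.31), which is counted with complex V by name only. *Atp5g1* (-1.58, standard error 0.18, adjusted p = 0.00026 by limma), *Atp5e* (-1.47), *Atp5o* (-1.14) and *Atp5j2* (-1.07) were lower. *Atp5e*, the epsilon subunit of the rotor, had 5.17, 2.88 and 1.73 FPKM in KO polysomes and 14.1, 7.57 and 9.79 FPKM in KO RNP, while in WT it had 8.31, 12.7 and 9.09 FPKM in polysomes and 3.74, 7.97 and 3.74 FPKM in RNP. The pools thus did not overlap in either genotype and stood in opposite order, and the effect on its ratio was -2.36 with an adjusted p of 0.13 (limma). The calls of *Atp5e*, *Atp5o* and *Atp5j2* each depended on KO RNP replicate 3, among others. In complex IV, *Cox4i2* (1.77), *Cox6b1* (1.62) and *Ndufa4* (1.18) were higher and *Cox6a2* (-1.29) and *Cox7b* (-0.76) lower, and in complex I *Ndufs1* (1.30) was higher and *Ndufa8* (-1.01) lower. The calls of *Cox4i2*, *Cox6a2*, *Ndufs1* and *Uqcrfs1* (0.93) were each lost without KO RNP replicate 1. The small subunits *Uqcr11* and *Uqcr10* of complex III stood at 1.29 and -0.81.

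**Figure D4:**
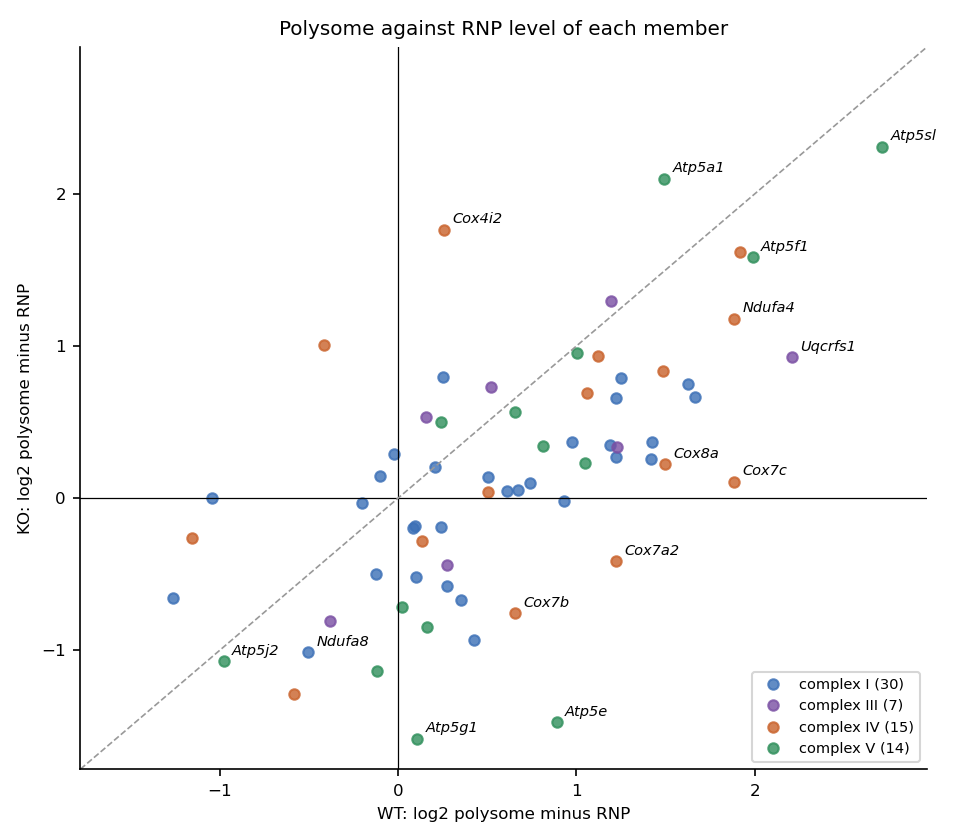
Log2 difference of polysome against RNP level in WT (horizontal axis) and KO (vertical axis) for the 66 members tested in both genotypes, coloured by complex, with a dashed line of equal differences. Most points lie below the line, and *Atp5g1*, *Atp5e* and *Cox7b* lie above 0 in WT and below -0.5 in KO.

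Other short mRNAs showed part of this pattern. Genes outside the list whose longest transcript is under 1000 bases (553 tested for the ratio) had a median effect on the ratio of -0.35 and lay above 0 in 31.3%, the cytosolic ribosomal protein genes (59 tested) had -0.33 and the mitochondrial ribosomal protein genes (75 tested) -0.20. Lower ratios in KO were thus also the majority in these lists. In the RNP pool the cytosolic ribosomal protein genes had a median change of 0.45, with 14 of 54 higher and 1 lower, close to the members at 0.48, whereas short transcripts had 0.22 and mitochondrial ribosomal protein genes -0.07, with 10 of 75 higher and 18 lower. In WT the median of polysome less RNP was 0.57 for the members, 0.02 for cytosolic and -0.13 for mitochondrial ribosomal protein genes and -0.01 for short transcripts. No test of one list against another was made, and whether transcript length accounts for the members' changes was not tested. The members with the start-site letters (8 tested) had a median effect on the ratio of -0.51 and those without (62 tested) of -0.46, while 165 other genes with these letters had 0.04.

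**Figure D5:**
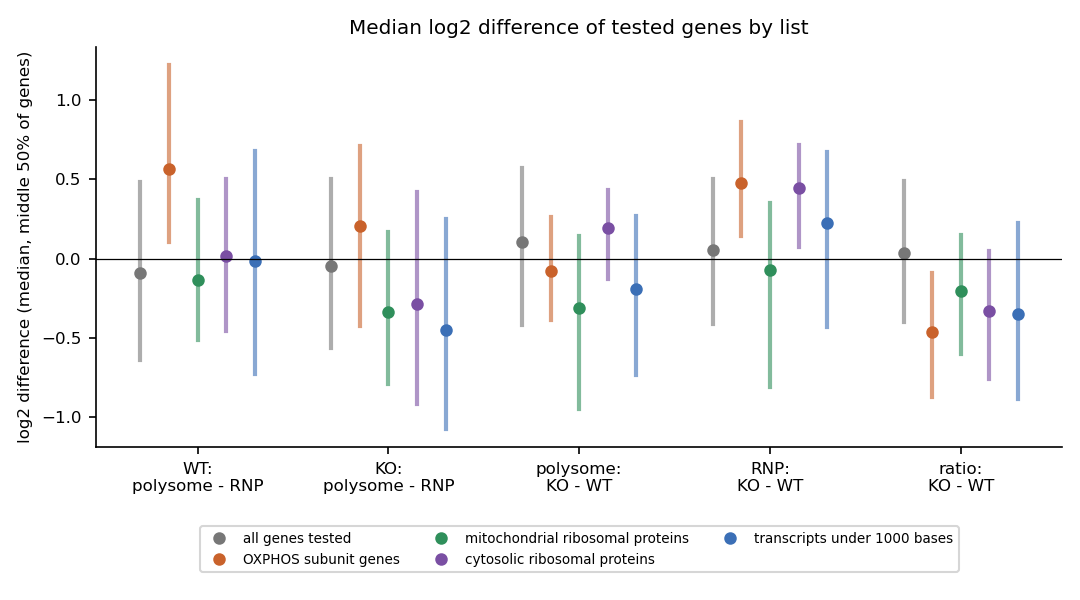
Median log2 difference (points) and range of the middle 50% of genes (bars) over the tested genes of 5 lists, in each of the 5 comparisons. The OXPHOS members stand highest in WT polysomes against RNP at 0.57 and, with the cytosolic ribosomal protein genes, in KO against WT in RNP.

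Other nuclear genes of the pathway were listed by role. The first list held genes of complex II, which feeds in electrons from succinate, genes of cytochrome c, and *Cyc1*. *Cyc1* encodes cytochrome c1 of complex III, which the rule by names leaves out. In this list none of 5 genes tested was called between genotypes in either pool, and the polysome and RNP medians were 0.33 and 0.25. *Atpif1*, the inhibitor of the ATP synthase, rose in the RNP pool by 1.05 (standard error 0.20, adjusted p = 0.00664 by limma). Of 18 assembly factors of complex IV tested in polysomes, 3 fell (16.7%, against 4.73% of all genes) and none rose, namely *Coa3* (-4.02), *Cmc1* (-2.06) and *Cox14* (-1.0). Of 17 tested in RNP, *Coa7* (-2.26) and *Cmc1* (-1.54) fell and *Cox16* (1.37) and *Cox18* (0.48) rose, 11.8% in each direction, near the 10.2% and 10.5% of all genes. *Tmem70*, an assembly factor of complex V, fell in polysomes (-1.11) and in RNP (-1.21), and *Ndufaf2* of complex I fell in RNP (-0.89). No factor of complex III was called between genotypes. Of the carriers that serve complex V, *Slc25a3*, for phosphate, rose in polysomes (1.15) and *Slc25a5*, for ADP and ATP, in RNP (0.77). Subunits encoded by the mitochondrial genome were not analysed here.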

How the data were processed

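RNA of polysome and RNP pools was amplified by Smart-seq2, which primes on the poly(A) tail, so that levels are those of tailed RNA. The authors mapped reads to mm10 with TopHat2 2.0.13 and deposited FPKM values per gene symbol and library calculated with Cufflinks 2.2.1. FPKM holds no read counts. The 54 columns of the authors' own comparisons (log2 changes, p-values and q-values by Cuffdiff) were not used. The annotation release, strand setting and treatment of reads with several matches are not given in the sources used here. Samples were grouped by their labels.

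Library depth was read from the step size of small FPKM values, with annotated length less 200 bases as effective length. Genes at 1 FPKM or more in at least 3 libraries of a comparison were tested with limma 3.58.1 (R 4.3.3) on log2(FPKM + 1), with an intensity trend and Benjamini-Hochberg adjustment at 0.05 over all genes tested. The pseudocount of 1 understates the changes of low genes. The method was tested on simulated data. Summaries used Python 3.11.15, pandas 2.3.3 and numpy 2.4.6, and figures matplotlib 3.10.9. Transcripts came from GENCODE M21 (23909 of 24259 symbols matched, 20382 with a coding transcript), for each gene the coding transcript that best overlaps the deposited locus. Intervals that need counts were not given.

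The members and lists were chosen with earlier results of these data known. Members named are catalytic core subunits, families with paralogous isoforms, for each comparison up to 6 called members in each direction with the largest change and a mean of at least 5 FPKM, and the 5 most abundant in WT RNP. *Ndufb6*, *Ndufb11*, *Uqcrh* and *Ndufa7* fall outside this rule and were named after their values were seen, members with start-site letters were named for these, and members below the filter were named for that. The list by coding transcripts under 1000 bases was added after seeing the data. Alternatives used a pseudocount of 0.1 or 5, all genes unfiltered or a floor of 5 FPKM, a common library median, quantile normalization, no intensity trend, the replicate number as a block, and each library left out in turn. Of the members with start-site letters, some are counted but not reported here on their own.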

Additional observations from a re-analysis of the deposited data

Results flagged for a closer look

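The effect of genotype was compared between the pools as KO against WT in polysomes less KO against WT in RNP, on the log2 scale. For *Atp5g1* (-1.69) and *Cox8a* (-1.27) the interaction of genotype and pool passed the test, with an adjusted p of 0.0204 each (limma). Both calls were lost without the intensity trend, with the replicate number as a block, and when any RNP library other than WT replicate 1 was left out.

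In 5 members all KO libraries lay below WT in polysomes and above WT in RNP. Their differences were -1.63 for *Cox7a2* (adjusted p = 0.0949 by limma), -1.78 for *Cox7c* (adjusted p = 0.0877), -1.05 for *Ndufa7* (adjusted p = 0.154), -0.51 for *Ndufa8* (adjusted p = 0.343) and -0.72 for *Uqcrq* (adjusted p = 0.199), so that none passed the test of the difference. With 3 libraries in a group, no library was examined as an outlier.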

How the results depend on the processing

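Deviations of same-numbered libraries correlated by -0.021 to 0.026. Such values cannot tell whether same-numbered pools came from 1 gradient, so the pairing stays unknown. With the replicate block the count of members called higher in polysomes, KO against WT, was 0 and that called lower in the ratio was 0, while the counts of the other comparisons stayed within 1.5 times. The count of members higher in KO polysomes, 1 as reported, was 2 with a pseudocount of 5 or a filter at 5 FPKM, and 0 without a filter or without the intensity trend. The count lower there, 0 as reported, was 1 with the filter at 5 FPKM and 2 with quantile normalization. The count higher in KO RNP, 13 as reported, was 20 with the filter at 5 FPKM. The count lower in the ratio, 2 as reported, was 1 without a filter and 0 without the trend. The count lower in WT polysomes against RNP, 0 as reported, was 1 with quantile normalization, and that in KO, 12 as reported, was 7 without the trend.

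With pseudocounts of 0.1 and 5 the members' median was 0.56 and 0.33 for KO RNP against WT RNP, -0.57 and -0.33 for the ratio, and 0.70 and 0.42 for WT polysomes against RNP, as the pseudocount scales all changes. For KO polysomes against RNP it was 0.14 with a pseudocount of 5, 0.15 without a filter and 0.15 with quantile normalization.

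With each library left out, higher and lower counts ranged from 0 to 2 and 0 to 3 in polysomes, 10 to 20 and 1 to 1 in RNP, 0 to 0 and 0 to 4 in the ratio, 11 to 20 and 0 to 1 between the pools in WT, and 9 to 16 and 5 to 11 in KO. The medians ranged from -0.17 to 0.02, 0.41 to 0.58, -0.67 to -0.39, 0.50 to 0.77 and 0.16 to 0.24 in the same order, so that the median of the polysome comparison alone changed sign. Of the changes of called members under all alternatives, 764 kept direction and call and 170 kept direction without the call, the cause of which was not tested. Rescaling to the same median gave members' medians less those of all genes of -0.18, 0.42, -0.50, 0.66 and 0.24.

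Depth limits the members of low level, with a median of 6.19 estimated fragments per library for *Ndufs3* against 1010 for *Cox8a*. The other core subunits of complex I had medians of 17.3 (*Ndufs7*) to 81.5 (*Ndufv1*), and *Atp5g2* of complex V had 2.55.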
